A study of Mus musculus with 4 samples.

Results

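Hemoglobin transcripts were followed in brain vascular-associated cells (BVACs) of the mouse through 5 genes chosen by symbol out of 31053 in the deposited matrices. They are the alpha-globins Hba-a1 and Hba-a2, the beta-globins Hbb-bs and Hbb-bt, and Alas2. The choice was made because their levels were known to differ between libraries, so the levels below are a description and carry no test. The study compared male C57BL/6 mice 12 to 14 weeks old that lived for 14 days under chronic social defeat by an aggressive CD-1 mouse (CSD) or in the home cage (HC). The HC mice were also housed with a CD-1 mouse, but behind a partition that was never removed. Each library pooled the cells of 4 mice, with 2 libraries per condition (CSD1, CSD2, HC1 and HC2). The animals were perfused through the heart with PBS and cells were drawn from the dissected brains, without cerebellum, brainstem, striatum or olfactory bulbs, with anti-CD31 magnetic beads, which also carried over cells other than endothelial cells (EC). Spread between libraries therefore stands for pools and preparations, and single mice cannot be seen.

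Adult hemoglobin is a tetramer of alpha and beta chains, each holding a heme group. Erythroid precursors make its mRNA in very large amounts, and young red cells keep some of it after the nucleus is lost. Alas2 is the erythroid form of the enzyme that starts heme synthesis, while the Alas1 form is used by most other cells. C57BL/6 mice carry a beta-globin locus with the adult genes Hbb-bs and Hbb-bt, and an alpha locus with the adult genes Hba-a1 and Hba-a2.

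On GRCm38 (GENCODE M21) Hba-a1 lies at chr11:32283511-32284465 and Hba-a2 at chr11:32296489-32297298, on the plus strand. Hbb-bs lies at chr7:103826534-103828096 and Hbb-bt at chr7:103812524-103813996, on the minus strand. Alas2 is on the plus strand of chrX:150547375-150570638. All 5 are annotated as protein-coding.

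How far the copies can be told apart by sequence decides what their separate counts mean, so the last 120 coding bases of each pair are shown, read from the GENCODE transcripts with the differing base in capitals.
Hba-a1: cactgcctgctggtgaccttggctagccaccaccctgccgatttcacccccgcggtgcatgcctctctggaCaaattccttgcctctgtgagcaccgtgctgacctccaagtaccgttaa
Hba-a2: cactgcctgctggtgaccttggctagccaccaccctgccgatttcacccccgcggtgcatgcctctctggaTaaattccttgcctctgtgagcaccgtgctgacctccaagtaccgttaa
Hbb-bs: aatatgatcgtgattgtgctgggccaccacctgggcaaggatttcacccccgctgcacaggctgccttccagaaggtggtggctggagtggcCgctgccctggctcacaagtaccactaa
Hbb-bt: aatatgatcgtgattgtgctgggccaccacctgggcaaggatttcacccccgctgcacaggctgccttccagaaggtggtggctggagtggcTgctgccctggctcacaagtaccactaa

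The alpha pair differed at 1 of 429 coding bases (99.8% identity), and after the stop codon the aligned transcripts had 0 mismatches, 1 annotated end being 16 bases longer. The beta pair also differed at 1 of 444 coding bases (99.8%), but had 35 mismatches and 5 gap bases over 134 aligned bases after the stop. Reads that reach this stretch can thus tell Hbb-bs from Hbb-bt, while beta reads within the coding part can match both. Where the reads fell was not examined. The split of alpha-globin between Hba-a1 and Hba-a2 is uncertain, and the alpha counts can miss reads that match both copies. Alpha-globin is therefore mostly given as the sum of both genes, which does not restore reads that match both copies. The alpha-globin and Hbb-bt shares below are thus shares of counted UMIs and not of mRNA. Whether read positions differed between libraries or cell classes was not tested.

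The stretches of 110 bases before the RefSeq start sites (GRCm38.p6) are shown for 4 of the genes, since all 5 genes ranked the libraries alike. Capitals mark 4 motifs searched on both strands, with overlapping matches joined: the TATA box as TATAA, the CCAAT box by its name, the CACCC box by its name and the GATA motif as GATAA.
Hba-a2 (chr11:32296382-32296491, plus strand): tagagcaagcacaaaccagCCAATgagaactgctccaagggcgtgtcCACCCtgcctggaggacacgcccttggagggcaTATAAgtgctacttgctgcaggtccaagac
Hbb-bs (chr7:103827929-103828038, minus strand): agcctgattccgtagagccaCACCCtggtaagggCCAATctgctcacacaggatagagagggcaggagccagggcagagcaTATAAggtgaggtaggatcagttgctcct
Hbb-bt (chr7:103813924-103814033, minus strand): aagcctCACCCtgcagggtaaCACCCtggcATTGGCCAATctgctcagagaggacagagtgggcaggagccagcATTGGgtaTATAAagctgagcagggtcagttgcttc
Alas2 (chrX:150547307-150547416, plus strand): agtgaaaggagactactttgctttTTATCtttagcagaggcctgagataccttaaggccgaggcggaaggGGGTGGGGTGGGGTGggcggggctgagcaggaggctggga

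The 4 globin stretches each held a TATA box, a CCAAT box and a CACCC box and no GATA motif, while Alas2 held CACCC boxes and a GATA motif. Among 32851 promoter stretches of the same length, 10.9% held the TATA box, 20.2% the CCAAT box, 29.6% the CACCC box and 9.43% the GATA motif. GENCODE M21 sets the outer bounds of all 5 genes upstream of the RefSeq starts, by few bases for Hba-a2 and by more for the others. The stretches of Hba-a1 and Hbb-bs thus lie wholly within the gene bounds given above, and those of Hba-a2, Hbb-bt and Alas2 partly. Longer windows that hold these stretches and reach past the start sites were also compared. Those of Hba-a1 and Hba-a2 were identical over 297 bases once shifted by 3, and those of Hbb-bs and Hbb-bt differed at 131 of 299 bases.

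The libraries held 28619757, 30361474, 27297599 and 30250156 UMIs (CSD1, CSD2, HC1, HC2). Barcodes with 500 or more UMIs, 250 or more genes and no more than 25% mitochondrial UMIs were taken as cells, which left 4079, 2553, 2849 and 4934 cells, 14415 in all. CSD2 stood apart in that 73.9% of its barcodes of 500 or more UMIs were above the mitochondrial limit, against 40.3 to 49.2% in the other 3. Any pair of libraries shared between 0 and 9 cell barcodes and no globin-rich barcode as defined below. Of the globin-rich barcodes of CSD1, 19 were seen in HC1, and 10 of them held UMIs of the 5 genes there. From HC1 to CSD1 it was 8 of 32, and in every other pair at most 2 barcodes. The cause was not tested.

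The 4 globins and Alas2 were most abundant in HC1 and least abundant in HC2, and both CSD libraries lay between. Over all barcodes the 5 genes together made up 2502 CPM (UMIs of a gene for 1000000 UMIs of the same barcodes) in CSD1, 5407 in CSD2, 9490 in HC1 and 278 in HC2. HC1 was thus 34.1-fold above HC2, while CSD2 was 2.16-fold above CSD1. The means of 3955 ± 2054 in CSD and 4884 ± 6514 in HC (SD, n = 2) differed by less than the spread within either condition.

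Hbb-bs counted 1443 CPM in CSD1, 3689 in CSD2, 5517 in HC1 and 158 in HC2. Hbb-bt counted 275, 559, 848 and 32.5 in the same libraries. Alas2, whose product makes the precursor of heme, counted 5.03, 6.36, 16.1 and 0.595. The order of libraries was the same for all 5 genes, with Hba-a1 at 453, 639, 1804 and 51.5 and Hba-a2 at 326, 514, 1305 and 35.2.

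**Figure D1:**
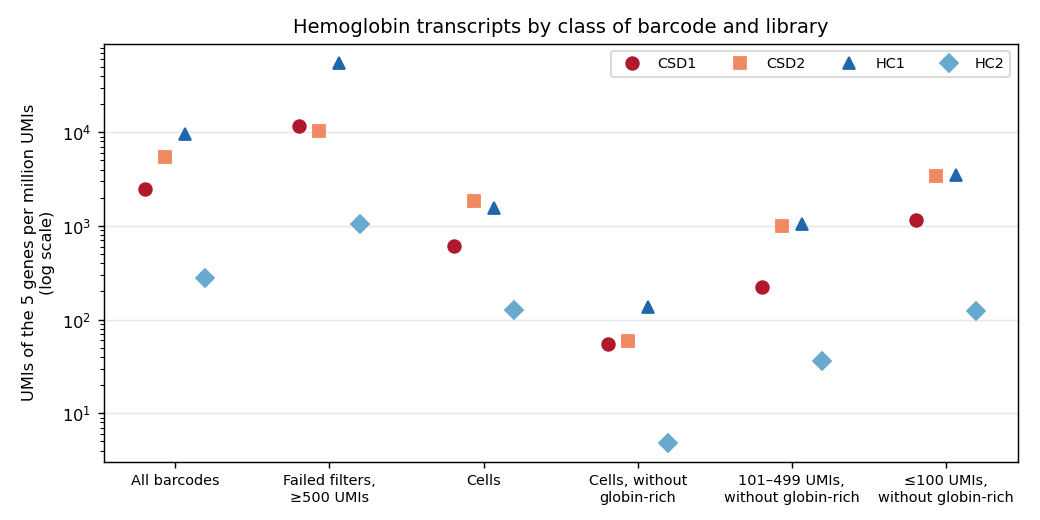
CPM of the 5 hemoglobin genes (log scale) in 6 kinds of barcode, 1 point per library. HC1 (up to 54861 CPM among barcodes that failed the cell filters) and HC2 enclose both CSD libraries in most kinds of barcode, and HC2 is lowest in each.

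Most of these UMIs sat in few barcodes. A barcode was called globin-rich with at least 10 UMIs of the 5 genes that made up at least 10% of its UMIs. There were 50 such barcodes in CSD1, 43 in CSD2, 155 in HC1 and 8 in HC2, which is 12.3, 16.8, 54.4 and 1.62 per 1000 cells. These 256 barcodes held 90.6% of the 503244 hemoglobin UMIs of the series, with 88.6 to 91.8% in every library. A minimum of 5 UMIs gave 51, 49, 163 and 8 barcodes and a minimum of 50 gave 50, 36, 133 and 8. A minimum share of 50% gave 48, 37, 125 and 5, and the order of libraries was the same under each limit.

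The globin-rich barcodes had few genes for their UMIs. Their median was 1100.5 UMIs and 101.5 genes in CSD1, 1862 and 81 in CSD2, 1445 and 73 in HC1, and 1326 and 133.5 in HC2. Hemoglobin made up a median of 86.4, 91.9, 87.7 and 68.8% of their UMIs. Only 19 of the 256 counted as cells, because 161 had at least 500 UMIs but fewer than 250 genes and 75 had fewer than 500 UMIs. All filters together left 92.6% of the globin-rich barcodes outside the cells.

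**Figure D2:**
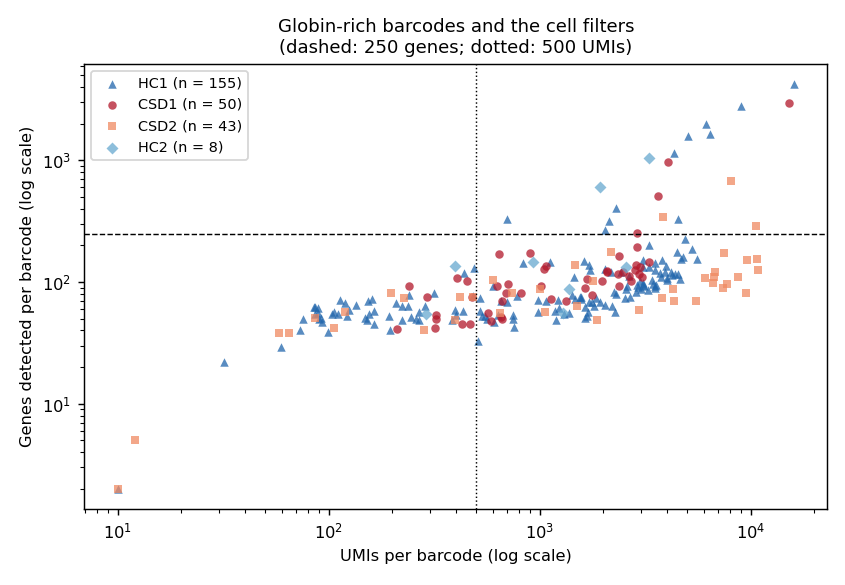
UMIs against genes detected in the 256 globin-rich barcodes (log scales), coloured by library, with the limits of 250 genes and 500 UMIs drawn as lines. Most barcodes lie below the gene limit in each library, with medians of 73 to 133.5 genes.

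All 4 globins were detected in 226 of the 256 barcodes, and Alas2 in 165. Of the 794 Alas2 UMIs of the series 753 (94.8%) were in globin-rich barcodes. In EC, microglia and choroid plexus cells with fewer than 10 hemoglobin UMIs, Alas2 had 0 UMIs in each of the 4 libraries.

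The genes most enriched in globin-rich barcodes, by the lowest fold of CPM over all other barcodes among the 4 libraries, were the 5 members, which chose the barcodes, and, among the genes that follow them, Ube2l6, Isg20 and Bpgm. Bpgm encodes the enzyme that makes 2,3-bisphosphoglycerate, which lowers the oxygen affinity of hemoglobin.

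Bpgm stood at 1628, 1521, 1075 and 1497 CPM in the globin-rich barcodes of CSD1, CSD2, HC1 and HC2, against 26.8 to 38.0 elsewhere. Ube2l6, a ubiquitin-conjugating enzyme, stood at 401, 511, 461 and 499.04 CPM against 4.30 to 5.41 elsewhere. The HC2 values rest on few counts, with 18 UMIs of Bpgm, 6 of Ube2l6 and 3 of Isg20, an exonuclease gene.

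Of 566 genes with at least 20 UMIs in globin-rich barcodes, 35 were higher in globin-rich barcodes in every library and 15 were over 10-fold higher, including the 5 members that chose the barcodes. Hemoglobin took up most UMIs of these barcodes, which lowers the CPM of every other gene in them. In the list of erythroid genes, 11 of the 19 found in the files were higher in globin-rich barcodes in all 4 libraries. Those include Fech, the enzyme that puts iron into heme (128 UMIs, at least 10.9-fold), Slc25a37 (mitoferrin-1, which brings iron into mitochondria, at least 10.2-fold) and Mkrn1 (556 UMIs, at least 13.2-fold). The erythroid transcription factors Klf1 and Gata1 had 1 and 0 UMIs in globin-rich barcodes and 20 and 6 in all others. These counts are too few to read a difference or an absence.

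Among the 14 genes of heme synthesis, Fech alone was higher in all 4 libraries, and Alas1 was lower, at 16.3 CPM in globin-rich barcodes and 64.2 elsewhere. Of the hemoglobin and heme clearance genes, 3 of 12 were higher in each library, namely Blvrb (biliverdin reductase B), Slc48a1 (a heme transporter) and Ftl1 (ferritin light chain). Their lowest folds were small, at 1.09, 1.51 and 1.09, and Slc48a1 rested on 1 UMI in HC2. Hmox1, the heme-degrading enzyme, was at 5.44 against 31.2 CPM. Since hemoglobin lowers the CPM of all other genes in these barcodes, the lower Alas1 and Hmox1 values are not read as less RNA. The small folds are lowered in the same way. The sums also include the 19 globin-rich barcodes that counted as cells, of which 6 were gated as microglia and 3 as EC. These had up to 4233 genes, so RNA of other cell types can enter the values of genes other than hemoglobin. No fold was computed without them. The theta-globins Hbq1a and Hbq1b had 11 of 13 and 8 of 9 UMIs in globin-rich barcodes. Of the embryonic globins, Hbb-bh1 had 1 UMI there, and Hba-x and Hbb-bh2 had none in any barcode. Hbb-y, also embryonic, had 81 of its 82 UMIs outside globin-rich barcodes. In EC Hbb-y was at 8.36 and 7.02 CPM in CSD1 and CSD2 and at 4.02 and 1.82 in HC1 and HC2, and was not called (edgeR, adjusted p = 0.586).

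The 7 platelet genes had 1 UMI in all globin-rich barcodes together, a count also held low by the share that hemoglobin took up there. Over whole libraries they made up 22.4, 16.7, 22.4 and 15.01 CPM in CSD1, CSD2, HC1 and HC2. This sum thus varied less than hemoglobin, which spanned a 34.1-fold range. HC2 was lowest for the platelet sum and for hemoglobin. The platelet sums of CSD1 and HC1 were nearly equal and stood above those of CSD2 and HC2, which was not so for hemoglobin. Gp9, with 991 UMIs the largest of the 7, was at 59.1, 56.5, 52.5 and 63.2 CPM in microglia of these libraries. The sum therefore does not stand for platelets alone. In EC, Ppbp ranged from 1.82 CPM in HC2 to 12.1 in CSD1, and Itga2b from 4.10 in HC2 to 8.03 in HC1.

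Globin-rich barcodes differed among themselves in the beta-globin they carried. In the 187 barcodes with at least 200 beta-globin UMIs, Hbb-bt made up between 0 and 26.9% of beta-globin, and the values gathered in 2 ranges. There were 73 barcodes below 6%, 3 between 6 and 8%, and 111 above 8%. This split was drawn after the values had been seen and is a description.

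**Figure D3:**
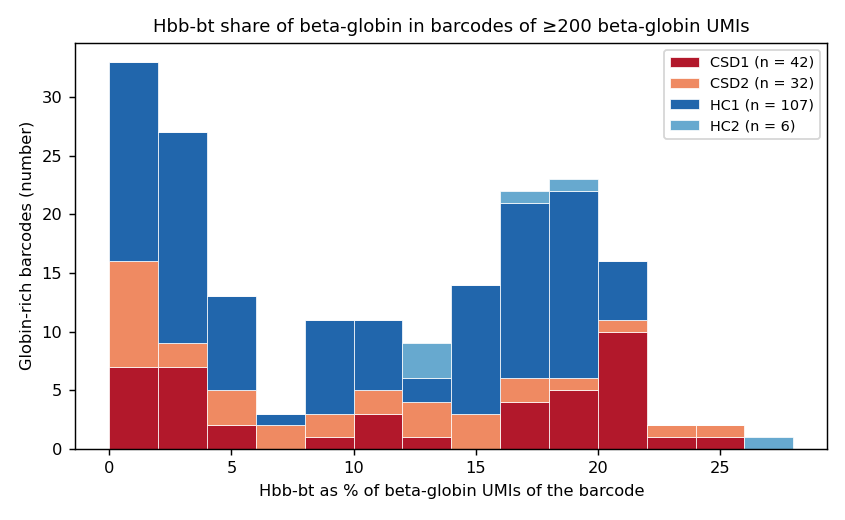
Number of globin-rich barcodes with at least 200 beta-globin UMIs (n = 187) by the share of Hbb-bt in their beta-globin UMIs, in bins of 2 percentage points, stacked by library. A peak below 6% and a broader one around 16 to 22% are separated by a bin that holds 3 barcodes.

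With a division at 7%, 16 of 42 barcodes were on the low side in CSD1, 14 of 32 in CSD2, 43 of 107 in HC1 and 0 of 6 in HC2. The shares were 38.1, 43.8 and 40.2% in the first 3 libraries, and HC2 had too few barcodes to compare. Barcodes on the low side had a median Hbb-bt share of 2.16% and those on the high side 16.7%.

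The low-Hbb-bt barcodes had fewer UMIs, with a median of 996 against 3081.5, and fewer genes, with 70 against 111.5. Erythroid genes other than globin made up 1.83 UMIs per 1000 in them and 5.05 in the others. In CSD1 the values were 2.09 and 5.83, in CSD2 2.76 and 5.28, and in HC1 1.26 and 4.54, so the direction was the same in the 3 libraries that held both kinds. Alas2 showed a smaller gap, at 1.26 against 1.39 per 1000.

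Among barcodes of 1000 to 5000 UMIs only, erythroid genes were at 1.56 per 1000 in 33 low-Hbb-bt barcodes and 5.43 in 90 others. The median UMIs of these still differed, at 1640 and 2906. Since both shares rest on the same barcodes and depth moves with them, the part of depth in this pattern was not tested.

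Alpha-globin made up a smaller part of globin UMIs in CSD2 than in the other libraries. Its median share per barcode was 30.9% in CSD1, 19.2% in CSD2, 32.6% in HC1 and 30.6% in HC2. The quartiles were 16.1 and 22.9% in CSD2, below the lower quartiles of 28.9, 30.03 and 30.2% in CSD1, HC1 and HC2. Below 25% lay 26 of 32 barcodes in CSD2 and 1 of 42, 6 of 107 and 1 of 6 in CSD1, HC1 and HC2.

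In the barcodes of at most 100 UMIs that were not globin-rich, alpha-globin was 24.98, 21.98, 30.3 and 30.3% of globin UMIs. CSD2 was again the lowest, but there CSD1 also lay below both HC libraries, which it did not in the globin-rich barcodes. CSD2 is also the library with the largest share of barcodes above the mitochondrial limit, and the part of this in the ratio was not tested.

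**Figure D4:**
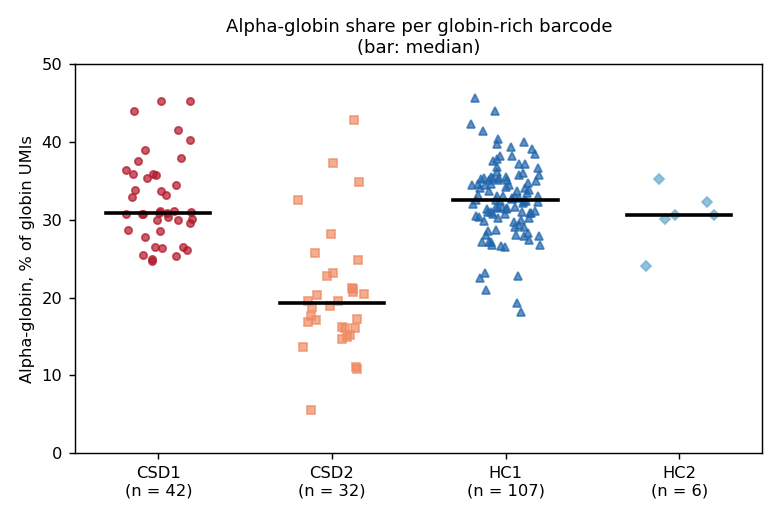
Alpha-globin (Hba-a1 and Hba-a2) as a percent of globin UMIs in each globin-rich barcode with at least 200 beta-globin UMIs, by library, with the median as a bar. CSD2 has a median of 19.2%, and the other libraries lie between 30.6 and 32.6%.

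Barcodes of at most 100 UMIs were taken to hold mostly free RNA. Without the 19 globin-rich ones, the 5 genes made up 1146 CPM there in CSD1, 3418 in CSD2, 3482 in HC1 and 122 in HC2. As a part of the hemoglobin UMIs in globin-rich barcodes of the same library, these UMIs came to 6.58, 8.24, 6.01 and 6.21%. The amount in these small barcodes thus kept to a narrow range of 6.01 to 8.24% of the amount in globin-rich barcodes. The latter ran from 7618 UMIs in HC2 to 237674 in HC1. Larger barcodes that were not globin-rich are not part of this share.

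Hemoglobin was denser in barcodes of under 10 UMIs than in those of 50 to 100. Barcodes with 1 UMI had 3253, 3658, 8143 and 299 CPM in CSD1, CSD2, HC1 and HC2, those with 2 to 9 had 3669, 3512, 8568 and 258, and those with 50 to 100 had 496, 3079, 2280 and 87.1. The difference was small in CSD2, whose highest level, 4373, was in barcodes of 10 to 49 UMIs. Barcodes that differ from a globin-rich one at a single base held 40, 33, 94 and 0 hemoglobin UMIs, at most 0.931% of the hemoglobin UMIs in barcodes of at most 100 UMIs.

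Cells were assigned to classes by marker genes, and the levels of the 5 genes in a class depended on very few of them. Of 14415 cells, 27 held at least 10 hemoglobin UMIs, and those 27 accounted for all but 1419 of the 54052 hemoglobin UMIs in cells. In sums over many cells, fewer cells of a kind and less RNA per cell cannot be told apart. In 5212 EC, hemoglobin was at 25.5, 106, 3280 and 5.01 CPM in CSD1, CSD2, HC1 and HC2. Without the 7 EC with at least 10 hemoglobin UMIs, HC1 fell to 80.6 and the other 3 kept their values.

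In 4803 microglia the levels were 707, 50.1, 4536 and 3.103 CPM, and without 8 cells they were 23.7, 50.1, 60.3 and 3.103. With classes taken from clusters instead of marker gates, microglia stood at 1419, 6068, 4730 and 3.70, so that CSD2 became the highest library. In 1818 choroid plexus cells they were 312, 14.0, 97.1 and 103, and without 4 cells 5.73, 14.0, 14.2 and 4.86. The conditions overlapped in each of the 3 classes with and without these cells, and HC2 was the lowest library in each once the cells were left out.

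Pericytes, gated on mural markers, gave 48.5, 136, 132 and 8.54 CPM without cells of at least 10 hemoglobin UMIs, and astrocytes gave 18.8, 127, 187 and 7.53. Arterial SMC gave 3.28, 19.98, 20.4 and 4.12. The order of CSD2 and HC1 above CSD1 and HC2 was shared by these 3 classes and by EC, microglia and choroid plexus cells. In CSD1, CSD2 and HC1, EC, pericytes and astrocytes, whose cells had fewer UMIs, were above arterial SMC and choroid plexus cells. The order in CSD1 rests on few counts, with 3 UMIs each in astrocytes and arterial SMC and 6 in pericytes. In HC2 no order can be read, since pericytes and arterial SMC held 2 UMIs each and astrocytes 1, under the floor of 3 UMIs.

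These levels were a small part of those in barcodes of at most 100 UMIs. Without cells of at least 10 hemoglobin UMIs, EC stood at 2.23, 3.09, 2.31 and 4.09% of that level in CSD1, CSD2, HC1 and HC2, and microglia 2.07, 1.46, 1.73 and 2.54%. Ttr, the choroid plexus transcript for transthyretin that EC should lack, stood in the same EC at 4.18, 3.74, 3.83 and 7.54% of its level in those barcodes. Relative to the small barcodes, hemoglobin in EC was thus lower than Ttr in each library. Hemoglobin varied with the size of these barcodes, as given above, and Ttr was not split by size. The order can therefore depend on the barcodes taken as reference.

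Among EC with fewer than 10 hemoglobin UMIs, the share with any was 4.22, 18.9, 16.4 and 0.600% in CSD1, CSD2, HC1 and HC2, with a median depth of 1252, 1425.5, 1518 and 879 UMIs. Thinned to 500 UMIs per cell, the expected shares were 1.76, 8.51, 6.98 and 0.279%. The same shares in microglia were 1.24, 5.39, 4.38 and 0.200%, in the same order of libraries.

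Summed over the libraries, choroid plexus cells of few hemoglobin UMIs held more alpha- than beta-globin UMIs, unlike such EC and microglia. This did not hold in CSD2 alone. In cells with fewer than 10 hemoglobin UMIs, alpha-globin was 62.7% of globin UMIs in choroid plexus (151 alpha and 90 beta UMIs), against 30.9% in EC (156 and 349) and 24.9% in microglia (98 and 296). In choroid plexus the share was 65.1% in CSD1, 46.9% in CSD2, 57.0% in HC1 and 86.7% in HC2, the last with an exact binomial 95% interval of 73.2 to 94.9%. In EC it was 37.7, 24.2, 37.9 and 36.4%, so choroid plexus was above EC in all 4 libraries. The counts were small in places. In CSD2 choroid plexus held 15 alpha and 17 beta UMIs, with an interval of 29.1 to 65.3% against 19.1 to 29.9% in EC. The EC share of HC2 also rests on few UMIs.

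In HC2, the library with the least hemoglobin, choroid plexus cells held 19 UMIs of Hba-a1, 20 of Hba-a2, 5 of Hbb-bs and 1 of Hbb-bt among 903 cells. Microglia of HC2 held 0 alpha and 8 beta UMIs. This pattern and the limit of 10 UMIs were picked after the values had been seen, and in CSD1 and HC1 the pattern rests on that limit. With only globin-rich cells left out, which returns 2 choroid plexus cells, alpha-globin was 34.3% in choroid plexus and 38.0% in EC, and over all cells 29.0 and 30.4%. The returned cells were in CSD1 and HC1, where the shares became 34.9 and 30.5% in choroid plexus, against 37.7 and 42.0% in EC. In CSD2 and HC2 both limits kept the same choroid plexus cells and EC, so choroid plexus stayed above EC there. The intervals cover counting error only.

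**Figure D5:**
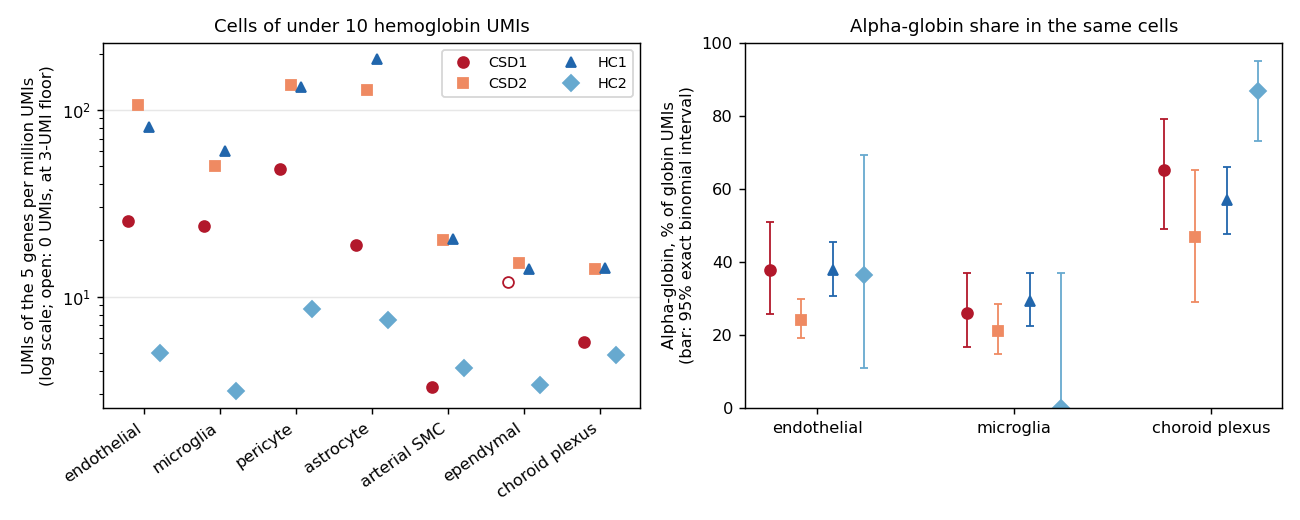
Left, CPM of the 5 genes (log scale) in cells with fewer than 10 hemoglobin UMIs, by class and library, with an open point at the 3-UMI floor where none was found. Right, alpha-globin as a percent of globin UMIs in 3 classes with exact binomial 95% intervals, where choroid plexus lies above EC and microglia in each library.

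In edgeR's quasi-likelihood fits of CSD against HC, 4 of 10565 genes were called in EC (0.0379%), 0 of 10181 in microglia (0%), 6 of 11598 in choroid plexus cells (0.0517%) and 1 of 12230 in barcodes of at most 100 UMIs (0.00818%). All were higher in CSD, a direction that did not hold under every alternative: without HC1, the 2 genes called in choroid plexus cells were lower in CSD. None of the genes called with all 4 libraries belonged to the lists of other globins, heme synthesis, clearance, erythroid or platelet genes. An unadjusted edgeR p under 0.05 was found for 724 of 10565 genes in EC and 136 of 10181 in microglia. In choroid plexus cells it was 376 of 11598 and in barcodes of at most 100 UMIs 776 of 12230. The share was under 0.05 in microglia and choroid plexus cells. DESeq2 called 2 genes in microglia. The 4 globins passed the filter on low counts in all 4 fits and Alas2 in none.

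The fitted log2 difference of Hbb-bs (CSD minus HC) was -4.58 in EC, -2.65 in microglia, 0.69 in choroid plexus cells and 0.50 in barcodes of at most 100 UMIs. The sign thus varied between fits, and the per-library values above show how far single libraries and a few cells set them. These are the contrasts that the choice of genes used, and no call is read from them.

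Heme synthesis genes had 14 of 14 measured in each fit and none called. Their median log2 difference was -0.13 in EC, -0.01 in microglia and 0.07 in choroid plexus cells, against medians of all genes within 0.01 of 0. Abcg2, a transporter of porphyrins that is abundant in EC, was at 1200 and 1233 CPM in CSD and 1213 and 1285 in HC. Alas1, the housekeeping counterpart of Alas2, was at 287 and 331 against 267 and 276 (edgeR, adjusted p = 0.812).

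Of the clearance genes 9 of 12 were measured in each fit and none was called. Hmox1 in microglia was at 138 and 50.7 CPM in CSD1 and CSD2 and at 95.5 and 41.5 in HC1 and HC2, so the conditions overlapped. Between libraries of the same number CSD was the higher, but whether the numbers mark pairs is not known. Ftl1 in microglia was at 5120 and 3057 in CSD and 5293 and 2995 in HC. Slc40a1, the iron exporter ferroportin, was at 213 and 278 in EC of CSD and 303 and 313 in EC of HC, and was not called (edgeR, adjusted p = 0.828). The erythroid list had 7 genes measured in EC, 7 in microglia, 6 in choroid plexus cells and 8 in the smallest barcodes, with none called.

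No gene followed hemoglobin closely across classes. Over 40 sums (10 classes in 4 libraries) and 11431 genes with at least 200 UMIs in cells, the highest Pearson correlations of log2 (CPM + 1) with the summed members were 0.63 for Zfp691, 0.63 for Atp6v0c and 0.59 for Zfp790. The points share libraries and depth, and the correlation is a description. Class sums of hemoglobin depended on very few cells, as given above, so the lack of a close match is not read further.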

How the data were processed

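The authors deposited UMI counts per gene and barcode for every barcode, without normalization or cell calling. The submitters' processing notes name Cell Ranger 4.0 and GRCm38, and the matrix header version 3.1.0. The published methods give yet another version, so the version used is uncertain. The count matrices were used as deposited. Cells were gated by the marker list with the largest share of genes detected (at least 3, no tie). Counts were summed per class and library and compared with edgeR 4.0.16 (TMM, filterByExpr, glmQLFTest, R 4.3.3), two-sided, with Benjamini-Hochberg adjustment and a threshold of 0.05. Fits were tested on simulated data, where the EC fit made more false calls than its threshold allows, so that genes called in EC are uncertain. DESeq2 1.42.0, RLE size factors, no filter, other cell limits, Leiden clusters (scanpy 1.11.5, 40 principal components) and leaving out each library were alternatives. Doublets were not called. Cell Ranger counts only reads assigned to a single gene, so near-identical copies lose reads. Intervals cover counting error only.

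Genes named were the members, called list genes or up to 4 abundant ones per list, the 10 most enriched in globin-rich barcodes and the 10 most correlated. Some genes these rules select are not reported here. Heme, theta-globin and transcription factor genes beyond these were named after their values were seen. The members and lists were chosen with earlier results of these data known.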

Additional observations from a re-analysis of the deposited data

How the results depend on the processing

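Each condition has 2 pools, so a single library can set a group mean. The log2 ratio of hemoglobin UMIs, as a share of all UMIs (CSD over HC), was -4.65 in EC, -2.58 in microglia, 0.71 in choroid plexus cells and 0.32 in barcodes of at most 100 UMIs. Leaving out each library gave -6.01 to 3.71, -5.50 to 6.93, -2.83 to 1.64 and -0.68 to 4.23, and the sign turned without HC1 in EC and microglia (3.71 and 6.93), without CSD1 in choroid plexus cells (-2.83), and without CSD2 (-0.68) or HC2 (-0.63) in the small barcodes. Without cells of at least 10 hemoglobin UMIs, an alternative chosen after seeing the data, EC gave 0.62 and microglia 0.22. The sign also turned in microglia with classes from clusters (0.66) and in the small barcodes at 50 UMIs or fewer (-0.04). For globin-rich barcodes the ratio was -0.81, and -1.74 to 2.54 with each library left out, turning without HC1.

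The counts of genes called, which hold no gene of the lists in the fits as reported, moved widely. EC went from 4 genes to 51 with DESeq2, 0 without the low-count filter, 8 in cells of at least 1000 UMIs, 2 with classes from clusters, and 50 to 302 with each library left out. Microglia went from 0 to 2 with DESeq2, 32 without the filter (11 higher and 21 lower in CSD) and 0 to 34 with each library left out (34 without CSD1). Choroid plexus cells went from 6 to 42 without the filter, 10 in cells of complexity at least 0.8, and 2 to 61 with each library left out. The small barcodes went from 1 to 3 with DESeq2, 0 without the filter, 0 at 50 UMIs or fewer, and 2 to 1421 with each library left out (1421 without CSD1, 769 higher and 652 lower in CSD). A library left alone in its condition is assumed to vary like the others. The causes were not tested.

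The replicate block gave 29 genes in EC, 26 in microglia, 42 in choroid plexus cells and 2 in the small barcodes. Libraries of the same number deviated from their condition means with correlations of 0.103, 0.302, 0.0617 and 0.0994. With only 2 pairs, these values cannot decide whether the numbers mark pairs, and the main fits did not use them as such. The platelet sum and Ftl1 and Hmox1 in microglia, given above, were higher in CSD1 and HC1 than in CSD2 and HC2. Hemoglobin over all barcodes did not follow the numbers. The cause was not tested.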
